A study of Mus musculus with 53 samples.

Results

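The RNA levels of 10 genes that encode the enzymes and core partners acting on methylation of histone H3 lysine 27 (H3K27) and of DNA were followed in mouse bone marrow-derived macrophages (BMDMs) exposed to interleukin-4 (IL-4). The genes were taken by name from the 23847 loci listed for each sample, by a rule that uses no measured value, although the set was chosen with earlier results of these data known. They are Kdm6a, Kdm6b, Ezh1, Ezh2, Eed, Suz12, Dnmt1, Dnmt3a, Tet2 and Tet3. All 10 reached 1 FPKM in at least 1 sample, the level needed to enter the test, and none was at 0 in any sample.

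BMDMs are macrophages grown in culture from bone marrow, here for 6 days with L929 supernatant, a conditioned medium that the labels record as MCSF (macrophage colony-stimulating factor). They came from wild-type C57BL/6 mice (WT) and from mice that lack the transcription factor STAT6 in the whole body (Stat6-/-), all 8 to 12 weeks of age. IL-4 was given at 20 ng/ml, and cells were taken after 1, 3, 6 and 24 h together with cells that had received none for as long, plus a control at 0 h. The 53 samples form 18 groups. Each WT group had 4 samples, except WT with 24 h of IL-4, where replicate 1 is not analysed here and n = 3, and each Stat6-/- group had 2. Because STAT6 was absent in every cell of the Stat6-/- mice, including during differentiation, cells that matured without STAT6 and cells that lack STAT6 only when IL-4 arrives cannot be told apart. The labels do not say whether the Stat6-/- samples came from separate animals, so for them a p-value measures only the spread between samples, which may be technical.

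H3K27 carries methyl groups that mark repressed genes. They are added by Polycomb repressive complex 2 (PRC2), in which EZH2 or its paralog EZH1 is the catalytic subunit, while EED binds the finished mark and SUZ12 holds the complex together. KDM6A (UTX) and KDM6B (JMJD3) are the demethylases that remove the mark, and KDM6B is known as a gene that macrophages switch on upon stimulation. In DNA, DNMT3A places new methyl groups on cytosine, DNMT1 copies the pattern after replication, and the dioxygenases TET2 and TET3 oxidize the methyl group as a step toward its removal. IL-4 drives the alternative polarization of macrophages through phosphorylated STAT6, a factor best known as an activator that also represses genes, and the purpose of the series was to find which IL-4 responses need STAT6.

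The genotype and the treatment were checked first. Stat6 was at 14.3 to 24.0 FPKM in the 18 Stat6-/- samples and at 58.7 to 90.6 FPKM in the 35 WT samples, with no overlap, where FPKM is the number of fragments per kilobase of a transcript, scaled to all fragments mapped in that sample. The IL-4 target Retnla rose in WT from 0.0748 to 4414 FPKM at 24 h, while its Stat6-/- means were 0.611 FPKM without and 0.491 FPKM with IL-4. Socs1, also checked, rose in WT at 1 h from 0.592 to 95.3 FPKM. In Stat6-/- at 1 h it was at 1.08 and 4.48 FPKM with IL-4 and at 0.464 and 1.07 FPKM without. The macrophage markers Csf1r (610 to 1081 FPKM) and Cd68 (780 to 1678 FPKM) were high in all 53 samples. Lyz2, another macrophage marker, was listed at 0 in 7 WT samples, although its median over the 53 samples was 16526 FPKM, and a 0 there may be a failed estimate. Of 7 T and B cell markers only Cd4, which macrophages can also express, exceeded 0.371 FPKM in any sample. The summed level of 7 neutrophil and progenitor markers ranged from 18.2 to 81.3 FPKM, and that of 6 fibroblast markers from 0.105 to 1.11 FPKM. Both Stat6-/- samples of replicate 2 at 24 h stood apart from replicate 1, with or without IL-4, and comparisons that rest on them are given with and without them. In these bulk samples, fewer cells that express a gene and less RNA per cell cannot be told apart.

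The promoters of 4 of the enzymes are shown because the IL-4 response of 3 of them (Dnmt3a, Tet2 and Ezh1) differed between the genotypes, and because that of Suz12 holds a word that fits the site STAT6 prefers. RefSeq windows were matched for 9 of the 10 genes (13 windows, since Dnmt1 and Dnmt3a have several starts). For Kdm6b no window was matched. Each run is the 250 bases before the annotated start on mouse build GRCm38.p6 (the assembly called mm10 elsewhere), read on the strand of the gene, and overlaps no annotated exon. The outer Dnmt3a start lies behind chr12:3806730-3806979 (plus strand), Tet2 behind chr3:133544391-133544640 (minus strand), Ezh1 behind chr11:101226464-101226713 (minus strand) and Suz12 behind chr11:79992856-79993105 (plus strand). Capitals mark a match to a STAT6 word.
Dnmt3a: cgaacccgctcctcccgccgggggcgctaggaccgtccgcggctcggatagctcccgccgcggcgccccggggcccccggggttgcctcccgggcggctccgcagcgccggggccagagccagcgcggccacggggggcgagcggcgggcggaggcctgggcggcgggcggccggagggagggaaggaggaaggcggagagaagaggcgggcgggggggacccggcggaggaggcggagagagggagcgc
Tet2: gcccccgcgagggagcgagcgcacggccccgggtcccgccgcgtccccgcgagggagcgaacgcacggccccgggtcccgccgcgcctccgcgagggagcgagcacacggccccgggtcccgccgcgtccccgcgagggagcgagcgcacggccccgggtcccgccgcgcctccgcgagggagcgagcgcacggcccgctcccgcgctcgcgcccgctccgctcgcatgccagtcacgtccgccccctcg
Ezh1: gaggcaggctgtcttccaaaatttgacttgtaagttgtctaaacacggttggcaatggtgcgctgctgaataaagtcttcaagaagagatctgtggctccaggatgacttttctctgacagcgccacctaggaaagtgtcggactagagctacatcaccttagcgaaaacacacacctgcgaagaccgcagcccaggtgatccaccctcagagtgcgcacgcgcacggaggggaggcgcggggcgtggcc
Suz12: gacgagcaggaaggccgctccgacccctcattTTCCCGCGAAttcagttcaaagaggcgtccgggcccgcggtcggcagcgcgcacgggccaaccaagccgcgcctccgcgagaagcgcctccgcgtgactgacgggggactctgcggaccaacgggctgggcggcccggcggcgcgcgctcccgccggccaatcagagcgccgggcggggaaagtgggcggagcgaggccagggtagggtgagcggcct

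The windows were searched on both strands for the palindrome with a 4-base spacer that STAT6 prefers (TTCNNNNGAA), for the 3-base spacer that other STAT factors prefer (TTCNNNGAA), and for the E2F words TTTGGCGC and TTTCGCGC, which mark many genes of the cell cycle. Of the 13 windows, only that of Suz12 held the 4-base spacer word, 218 bases before the start, and 5.85% of 32851 windows of this length hold it. With 13 windows searched, 1 window with the word is near that share. None of the 13 windows held the 3-base spacer word, which 7.02% of all windows hold. An E2F word lay 219 bases before the start in 1 of the Dnmt1 windows and in no other window of that gene, while 0.654% of all windows hold an E2F word. Unlike the windows shown, this Dnmt1 window overlaps annotated exons, in 166 of its 250 bases. The outer Dnmt3a window (82.4% G and C) and the Tet2 window (83.6%) were rich in CpG, with 15.2 and 20.4 CpG per 100 bases, while the Ezh1 window held 5.6. A word in a sequence is a description and not a measured binding site.

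In the absence of IL-4 the 10 genes spanned a wide range of levels. Since FPKM is scaled by transcript length, levels of different genes can be ranked. In the 20 WT controls the order of the mean levels was Dnmt1 (31.1 FPKM), Eed (18.7), Ezh1 (18.2), Suz12 (14.3), Dnmt3a (14.2), Tet3 (11.4), Ezh2 (9.74), Tet2 (6.56), Kdm6a (6.41) and Kdm6b (1.33). Neighbors in this order overlapped in their ranges over the 20 samples, except Dnmt1, whose lowest value of 21.7 FPKM was above the highest of Eed (21.3), and Kdm6b, whose highest value of 2.07 FPKM was below the lowest of Kdm6a (4.79). The maintenance methyltransferase was therefore the most abundant of the 10 RNAs and the inducible H3K27 demethylase the least.

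**Figure D1:**
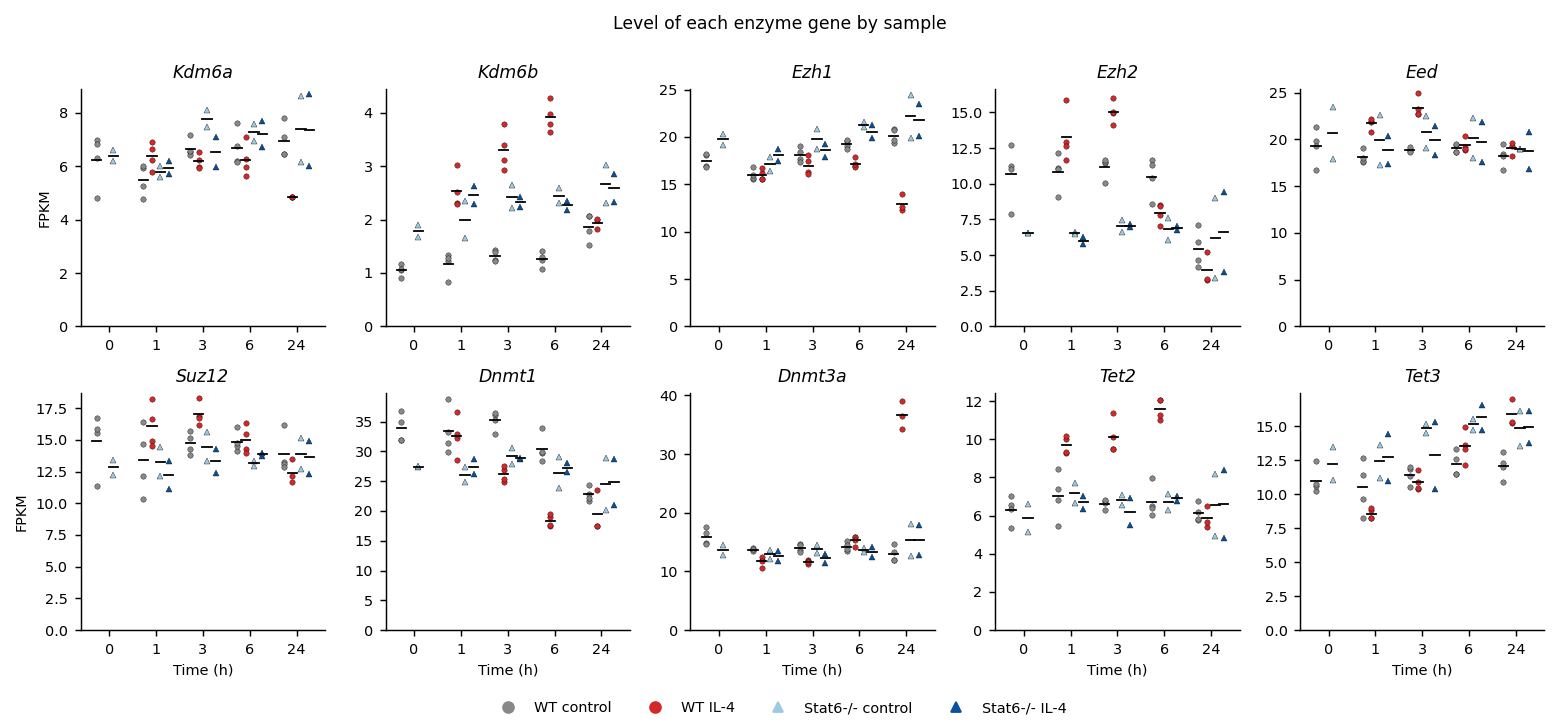
FPKM of each of the 10 genes (linear axes from 0, each with its own scale) against time in hours, 1 point per sample and 1 color and symbol per genotype and treatment. Kdm6b and Tet2 with IL-4 in WT stand above all other WT points to 6 h and fall back at 24 h, where Dnmt3a with IL-4 reaches 34.3 to 39.0 FPKM.

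IL-4 changed the levels of different enzymes at different times in WT BMDMs. Kdm6b, Tet2 and Eed rose within 1 h, Dnmt1 fell at 3 and 6 h, and by 24 h Dnmt3a and Tet3 had risen while Ezh1 and Kdm6a had fallen. The calls of Tet2 and Eed at 1 h and of Tet3 at 24 h were lost in some alternative analyses. Changes are given as log2 differences of FPKM + 1 between IL-4 and the time-matched control with their standard error (SE), from limma across 11146 loci with Benjamini-Hochberg adjustment, and a gene passed at an adjusted p under 0.05. At 1 h 3 of the 10 genes passed (all higher), against 9.39% of all loci. At 3 h 5 passed (3 higher and 2 lower), against 28.9% of all loci. At 6 h the count was 4 (2 higher and 2 lower), against 41.2%, and at 24 h it was again 4 (2 higher and 2 lower), against 55%. With a log2 change of FPKM + 1 of at least 1 also required, 0 genes passed at 1 h (1.49% of all loci) and 0 at 3 h (3.88%). At 6 h 1 passed (Kdm6b, 5.54%) and at 24 h 1 (Dnmt3a, 8.5%). This scale understates changes of low genes. Kdm6b missed the log2 threshold at 1 and 3 h, although its mean FPKM rose more than 2-fold at both times. The counts at the adjusted p alone were above the share of all loci at 1 and 3 h, near it at 6 h and below it at 24 h. With the log2 threshold they were 0 at the early times and a single gene at the later ones. The IL-4 and control samples did not overlap for 4 of the 10 genes at 1 h (16.1% of all loci), 7 at 3 h (38.9%), 5 at 6 h (46.1%) and 4 at 24 h (64.5%).

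Kdm6b, the inducible H3K27 demethylase, rose at 1, 3 and 6 h and was back at the control level at 24 h. At 1 h the controls were at 1.22, 0.823, 1.33 and 1.27 FPKM in replicates 1 to 4 and the IL-4 samples at 2.51, 2.32, 3.03 and 2.28 FPKM. Every IL-4 sample was above every control, and the difference passed the test (2.18-fold, log2 change 0.71, SE 0.08, adjusted p = 1.67e-08). At 3 h the controls were at 1.43, 1.25, 1.23 and 1.40 FPKM and the IL-4 samples at 3.40, 2.93, 3.11 and 3.78 FPKM (2.49-fold, log2 change 0.89, adjusted p = 2.64e-11). At 6 h the controls were at 1.41, 1.08, 1.23 and 1.30 FPKM and the IL-4 samples at 3.64, 3.97, 3.79 and 4.27 FPKM (3.12-fold, log2 change 1.12, adjusted p = 2.84e-14). The groups did not overlap at either time, and the 6 h mean was the highest of the gene in any of the 18 groups. At 24 h the controls had themselves moved up to 2.07, 1.52, 1.79 and 2.07 FPKM, and the IL-4 samples of replicates 2 to 4 lay among them at 1.83, 1.99 and 2.002 FPKM (log2 change 0.04, SE 0.09, adjusted p = 0.71).

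Kdm6a, the second H3K27 demethylase, which is encoded on the X chromosome, showed no such early rise. Its log2 change was 0.19 at 1 h (adjusted p = 0.264), -0.09 at 3 h (adjusted p = 0.532) and -0.08 at 6 h (adjusted p = 0.498). At 24 h it fell, from 7.09, 7.81, 6.48 and 6.47 FPKM in controls to 4.84, 4.85 and 4.86 FPKM with IL-4 (0.696-fold, log2 change -0.44, SE 0.10, adjusted p = 0.000351). All 3 IL-4 samples lay below all 4 controls. Its Y-linked relative Uty was lower at 24 h as well (6.46 ± 1.11 to 4.67 ± 0.131 FPKM, log2 change -0.38, adjusted p = 0.0223), as was the Y-linked H3K4 demethylase gene Kdm5d (log2 change -0.31, adjusted p = 0.00110). All 53 samples had the pattern of male cells, with Xist at 0.00740 FPKM or less and the Y-linked gene Ddx3y at 7.97 FPKM or more.

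Tet2, which oxidizes 5-methylcytosine, also rose at 1, 3 and 6 h and not at 24 h. At 1 h the controls were at 6.79, 5.45, 7.39 and 8.43 FPKM and the IL-4 samples at 9.27, 10.02, 9.35 and 10.1 FPKM (1.38-fold, log2 change 0.43, SE 0.12, adjusted p = 0.0103). This call was lost without control replicate 2 (log2 change 0.33, adjusted p = 0.0987) and in an analysis of variance with Tukey's adjustment (adjusted p = 0.0625). At 3 h the controls at 6.74, 6.27, 6.67 and 6.83 FPKM were all below the IL-4 samples at 9.51, 10.1, 9.46 and 11.4 FPKM (log2 change 0.54, adjusted p = 0.000305). At 6 h the controls were at 7.96, 6.03, 6.48 and 6.42 FPKM and the IL-4 samples at 12.05, 12.1, 10.99 and 11.3 FPKM (1.72-fold, log2 change 0.71, adjusted p = 3.69e-06). No control reached an IL-4 sample at any of these times. At 24 h the groups overlapped again, with controls at 5.77 to 6.75 FPKM and IL-4 samples at 5.42 to 6.48 FPKM (log2 change -0.06, adjusted p = 0.71).

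Its relative Tet3 moved otherwise. Tet3 passed at 24 h, where the controls were at 12.0, 12.3, 10.9 and 13.1 FPKM and the IL-4 samples at 17.0, 15.2 and 15.3 FPKM (1.31-fold, log2 change 0.37, SE 0.11, adjusted p = 0.00449). Every IL-4 sample was above every control, but the call was lost in an analysis of variance with Tukey's adjustment (adjusted p = 0.121). At 1 h its mean was lower with IL-4 (8.57 against 10.5 FPKM, log2 change -0.25, adjusted p = 0.129), a difference within the spread of the controls, which reached from 8.23 to 12.6 FPKM, and which passed only without control replicate 2 (log2 change -0.35, adjusted p = 0.0205).

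Dnmt3a, the de novo DNA methyltransferase, showed the largest log2 change of the 10 genes on this scale (in fold of means Kdm6b at 6 h was larger), and it came late. At 24 h the controls were at 12.0, 13.4, 11.9 and 14.8 FPKM and the IL-4 samples at 39.0, 34.3 and 36.5 FPKM. The lowest IL-4 sample was above the highest control by a wide margin, and the means of 13.0 ± 1.35 and 36.6 ± 2.35 FPKM (SD) differed 2.81-fold (log2 change 1.43, SE 0.09, adjusted p = 5.52e-16). Earlier the gene had not risen. At 3 h it was lower with IL-4, at 11.2, 11.9, 11.8 and 11.6 FPKM against 14.7, 14.6, 13.6 and 13.3 FPKM in controls (log2 change -0.25, adjusted p = 0.0185). This small difference did not pass without IL-4 replicate 1 (adjusted p = 0.0509), control replicate 1 (0.0587) or control replicate 2 (0.0514), nor in the analysis of variance (0.214). At 1 h the groups did not overlap either, but the difference of -0.22 did not pass (adjusted p = 0.109). It passed narrowly in a fit of only the samples compared (adjusted p = 0.0489). At 6 h the log2 change was 0.10 (adjusted p = 0.337).

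Dnmt1, the maintenance methyltransferase, went the other way and earlier. At 3 h the controls were at 36.0, 36.5, 32.9 and 35.3 FPKM and the IL-4 samples at 24.9, 26.9, 25.4 and 27.5 FPKM (0.744-fold, log2 change -0.41, SE 0.10, adjusted p = 0.000748). At 6 h the controls were at 29.6, 33.98, 28.4 and 29.8 FPKM and the IL-4 samples at 17.4, 18.98, 17.6 and 19.4 FPKM (0.603-fold, log2 change -0.70, adjusted p = 1.35e-07). At both times all IL-4 samples were below all controls, and the fall was deeper at 6 h. At 24 h the controls had come down to 21.7 to 24.3 FPKM, and the IL-4 samples, at 23.6, 17.4 and 17.5 FPKM, did not differ from them past the threshold (log2 change -0.23, adjusted p = 0.0616). Without the IL-4 sample of replicate 2 the difference passed (log2 change -0.36, adjusted p = 0.00582).

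Within PRC2, Ezh1 was the only catalytic paralog that passed the test. Ezh1, which is known for its expression in cells that do not divide, fell slightly at 6 h (19.6, 19.03, 19.6 and 18.8 FPKM in controls and 17.8, 16.9, 16.8 and 17.1 FPKM with IL-4, log2 change -0.16, SE 0.05, adjusted p = 0.0168), a call that was lost in the analysis of variance (adjusted p = 0.211). At 24 h it fell further, from 20.8, 19.4, 20.7 and 19.6 FPKM to 12.3, 12.6 and 13.96 FPKM (0.643-fold, log2 change -0.60, adjusted p = 4.36e-11). No IL-4 sample reached a control at either time.

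Ezh2, the paralog known for its expression in dividing cells, passed at no time in the fit over all groups. At 3 h its controls were at 10.1, 11.5, 11.6 and 11.6 FPKM and its IL-4 samples at 14.9, 16.004, 14.1 and 15.02 FPKM (log2 change 0.40, SE 0.18, adjusted p = 0.101). At 6 h the order was turned, with controls at 8.61, 11.7, 10.4 and 11.3 FPKM and IL-4 samples at 7.08, 8.54, 7.81 and 8.41 FPKM (log2 change -0.36, adjusted p = 0.113). The groups did not overlap at these times, yet the SE of Ezh2 in the model, which pools all 18 groups, was the largest of the 10 genes. In a fit of only the samples compared both differences passed (adjusted p = 0.000667 at 3 h and 0.014 at 6 h). At 24 h the controls (4.13 to 7.10 FPKM) and IL-4 samples (3.29 to 5.25 FPKM) overlapped (log2 change -0.38, adjusted p = 0.0918), and the difference passed without IL-4 replicate 2 (log2 change -0.56, adjusted p = 0.0281) or control replicate 4 (-0.49, adjusted p = 0.0448).

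The noncatalytic core subunits moved little. Eed rose at 3 h, from 18.8, 19.01, 19.1 and 18.7 FPKM to 22.7, 24.97, 23.3 and 22.7 FPKM (1.24-fold, log2 change 0.29, SE 0.08, adjusted p = 0.00453). At 1 h its 4 IL-4 samples (20.8 to 22.2 FPKM) were above its controls (17.6 to 19.1 FPKM, log2 change 0.25, adjusted p = 0.0387). This call was lost without any single sample of these groups other than IL-4 replicate 3 and control replicate 3, with adjusted p of 0.0636 to 0.104. The analysis of variance (0.0915), no filter on low values (0.0560), median-ratio scaling (0.0553) and quantile normalization (0.0514) also lost it. Suz12 passed at no time in the fit over all groups, with log2 changes from -0.14 to 0.26. At 3 h its controls (13.8 to 15.7 FPKM) lay below its IL-4 samples (16.2 to 18.3 FPKM). That difference passed in a fit of only the samples compared (log2 change 0.20, adjusted p = 0.0188). At 1 h its control replicates ranged from 10.3 to 16.4 FPKM and its IL-4 samples from 14.5 to 18.2 FPKM (adjusted p = 0.126), and the difference passed without control replicate 4 (log2 change 0.36, adjusted p = 0.0210).

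**Figure D2:**
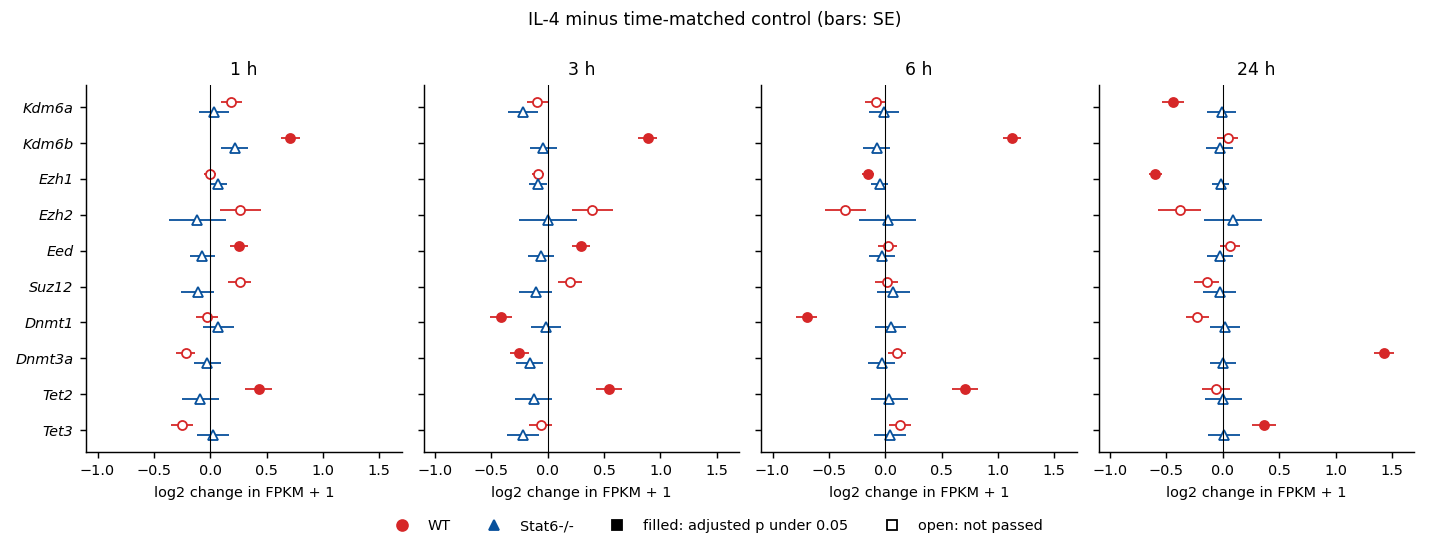
log2 change in FPKM + 1 (IL-4 minus time-matched control) of the 10 genes at 1, 3, 6 and 24 h, with bars for the SE, in WT and in Stat6-/-, where filled symbols passed the test and open symbols did not. WT values run from -0.70 (Dnmt1, 6 h) to 1.43 (Dnmt3a, 24 h), and the Stat6-/- values are open and lie between -0.22 and 0.22.

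In Stat6-/- BMDMs, none of the 10 genes passed the test at 1, 3, 6 or 24 h, and 0% of the 11146 loci did. At an unadjusted p under 0.05 the count was also 0 of the 10 genes, against 51, 131, 88 and 37 of all loci at the respective times. These are fewer loci than the share of 0.05 that chance alone would give. Same-numbered Stat6-/- samples correlated at 0.791 to 0.9, which this fit does not use, so its test could hardly pass a small response. With the replicate number as a block, 46 loci passed in the mean over the times (44 higher and 2 lower), and 0 of the 10 genes. In the mean over the 4 times, with 8 samples against 8, again 0 of the 10 genes passed, against 0.00897% of loci (a single locus). The log2 changes of the 10 genes in Stat6-/- ranged from -0.22 to 0.22, with SE of 0.08 to 0.25. Kdm6b with 1 h of IL-4 was at 2.29 and 2.63 FPKM in Stat6-/- against 1.65 and 2.35 FPKM in controls, and with 6 h at 2.35 and 2.18 against 2.58 and 2.31 FPKM. Dnmt3a at 24 h was at 17.9 and 12.8 FPKM with IL-4 and at 18.02 and 12.7 FPKM without. In this last pair the replicates differed from each other by more than the treated sample from the untreated sample of the same number. With both 24 h samples of replicate 1 or of replicate 2 left out (a comparison chosen after seeing the data), 1 sample remained in each 24 h group. The log2 changes at 24 h then lay between -0.16 and 0.13.

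The difference between the WT and the Stat6-/- response was tested directly. At 1 h it passed for Kdm6b alone (0.50, SE 0.14, adjusted p = 0.0446), or 1 of 10 genes against 3.36% of all loci. This call was lost without 7 of the 12 samples taken singly, with the value falling as low as 0.33 (adjusted p = 0.397) without Stat6-/- control replicate 2. At 3 h Kdm6b (0.92, SE 0.14, adjusted p = 7.14e-06) and Tet2 (0.67, SE 0.20, adjusted p = 0.0229) passed, against 11.2% of all loci. At 6 h these were joined by Dnmt1, with 16.5% of all loci past the test. The values at 6 h were 1.20 for Kdm6b (SE 0.14, adjusted p = 3.12e-08), 0.67 for Tet2 (SE 0.20, adjusted p = 0.0155) and -0.75 for Dnmt1 (SE 0.17, adjusted p = 0.00101). At 24 h Dnmt3a (1.43, SE 0.15, adjusted p = 2.19e-09) and Ezh1 (-0.58, SE 0.10, adjusted p = 1.38e-05) passed, against 27% of all loci.

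Of these calls, those of Kdm6b at 3 and 6 h, Dnmt1 at 6 h and Dnmt3a and Ezh1 at 24 h remained with any single sample left out. Tet2 at 3 h was lost without WT IL-4 replicate 4 (adjusted p = 0.0506), Stat6-/- IL-4 replicate 2 (0.180), Stat6-/- control replicate 1 (0.0501) or replicate 2 (0.1002). At 6 h it was lost without Stat6-/- IL-4 replicate 1 (0.0600) or Stat6-/- control replicate 2 (0.0872). Kdm6a at 24 h missed the threshold with a difference of -0.43 (SE 0.17, adjusted p = 0.05003). It passed without WT control replicate 3 (adjusted p = 0.0449) or replicate 4 (0.0418). With both 24 h Stat6-/- samples of replicate 1 or of replicate 2 left out, 1 Stat6-/- sample remained with IL-4 and 1 without. The differences were then 1.42 and 1.44 for Dnmt3a and -0.54 and -0.62 for Ezh1. Leaving out only Stat6-/- IL-4 replicate 1 or only Stat6-/- control replicate 2 sets samples of different replicate numbers against each other and leaves 1 sample in that group. The differences were then -0.66 and -0.64 for Kdm6a, -1.03 and -1.07 for Ezh2 and -0.47 and -0.49 for Dnmt1. With all samples the values of Ezh2 (-0.47, adjusted p = 0.282) and Dnmt1 (-0.25, adjusted p = 0.295) did not pass.

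Levels also differed by genotype in the cells that had not seen IL-4. In the mean over the 5 control times, 10 Stat6-/- samples against 20 WT samples, 5 of the 10 genes passed, against 21.4% of all loci. The fit takes these samples as independent, although replicate numbers recur across the times. Same-numbered Stat6-/- samples with and without IL-4 correlated at 0.791 to 0.9. In Stat6-/- controls to 6 h, the summed level of 20 proliferation genes was 366 to 436 FPKM in replicate 1 and 292 to 325 FPKM in replicate 2. At 24 h the order was turned (283 and 318 FPKM). To 6 h samples of a number were thus alike across times in this sum. The p-values of this comparison are therefore to be taken as too small. Kdm6b, Tet3 and Ezh1 were higher in Stat6-/- and Ezh2 and Dnmt1 lower. Kdm6b was at 1.65 to 3.02 FPKM (mean 2.26) in Stat6-/- controls and at 0.823 to 2.07 FPKM (mean 1.33) in WT controls, with a log2 difference of 0.49 (SE 0.05, adjusted p = 3.45e-10). The ranges meet only through the WT samples at 24 h, as the WT controls to 6 h reached no more than 1.43 FPKM. It passed on its own at 0 h (0.44, adjusted p = 0.0155), 1 h (0.47, adjusted p = 0.00957), 3 h (0.56, adjusted p = 0.00202) and 6 h (0.61, adjusted p = 0.000483), but not at 24 h (0.35, adjusted p = 0.228). None of the other 9 genes passed at a single time. Up to 6 h, the Stat6-/- controls (1.65 to 2.64 FPKM) lay above all WT controls of these times and below all WT samples with 3 or 6 h of IL-4 (2.93 to 4.27 FPKM).

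Ezh2 was at 3.40 to 8.999 FPKM (median 6.61) in the Stat6-/- controls and at 4.13 to 12.7 FPKM (median 11.04) in the WT controls (log2 difference -0.47, SE 0.10, adjusted p = 0.000530). Up to 6 h the genotypes did not overlap, with 6.04 to 7.58 FPKM in Stat6-/- and 7.85 to 12.7 FPKM in WT. At 24 h, Stat6-/- replicate 1 was at 3.40 FPKM without and 3.81 FPKM with IL-4, and replicate 2 at 8.999 and 9.39 FPKM. Dnmt1 was at 20.2 to 30.5 FPKM in Stat6-/- and 21.7 to 38.7 FPKM in WT controls (log2 difference -0.20, adjusted p = 0.00434). Tet3 was higher in Stat6-/- (mean 13.9 against 11.4 FPKM, log2 difference 0.26, adjusted p = 0.000624), as was Ezh1 (20.0 against 18.2 FPKM, 0.13, adjusted p = 0.00129). Without the 24 h controls these 5 genes also passed, with log2 differences of 0.52 for Kdm6b, -0.60 for Ezh2, -0.27 for Dnmt1, 0.25 for Tet3 and 0.13 for Ezh1.

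The lower Ezh2 and Dnmt1 levels came with other differences between the genotypes. Of 20 proliferation genes, 14 were lower in Stat6-/- controls and 0 higher, against 1486 lower and 895 higher of all 11146 loci. Their median log2 difference was -0.76 against -0.01 over all loci. This count is from the same comparison of control samples and has the same limit. All 5 neutrophil and progenitor markers that could be tested (Mpo, Elane, Prtn3, Camp and Ltf) were higher in Stat6-/- controls, with a median log2 difference of 0.57. Over samples with and without IL-4, the summed level of the list was 49.5 to 81.3 FPKM in Stat6-/- and 18.2 to 73.3 FPKM in WT. These ranges are not of controls alone, and Camp, Ltf and Prtn3 fell in WT with 24 h of IL-4. The part of these differences in the levels of the 10 genes was not tested. WT and Stat6-/- cells cannot be separated from any difference between their cultures, since no culture held both.

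Time in culture without IL-4 moved several of the same genes. Between 0 and 24 h, 5 of the 10 genes changed in WT controls, against 17.2% of all loci. Ezh2 fell from 7.85, 11.2, 11.04 and 12.7 FPKM to 5.89, 7.10, 4.65 and 4.13 FPKM (0.508-fold, log2 change -0.87, SE 0.18, adjusted p = 0.000738). Dnmt1 fell from 34.9, 32.0, 31.9 and 36.8 FPKM to 22.9, 24.3, 21.7 and 22.2 FPKM (log2 change -0.55, adjusted p = 7.68e-05). For both genes all 24 h samples were below all 0 h samples, and 10 of the 20 proliferation genes fell with them (median log2 change -0.78). Kdm6b rose from 0.913 to 1.17 FPKM to 1.52 to 2.07 FPKM (1.76-fold, log2 change 0.47, adjusted p = 8.53e-05), and Ezh1 rose slightly (log2 change 0.19, adjusted p = 0.0103). Dnmt3a fell by 0.27 on the log2 scale (adjusted p = 0.0203), with overlapping groups, and lost the call without 0 h replicate 1 (adjusted p = 0.0943), 0 h replicate 2 (0.0512), 24 h replicate 1 (0.0716) or 24 h replicate 3 (0.0798).

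At 1, 3 and 6 h, 0 of the 10 genes differed from 0 h in WT controls, against 2%, 0.144% and 0.135% of all loci. In Stat6-/- controls 0 of the 10 genes passed between 0 and 24 h, against 0.718% of all loci. Kdm6b came closest there (log2 change 0.39, adjusted p = 0.108). Without 24 h replicate 1, which leaves 1 control at 24 h, the log2 change was 0.53 for Kdm6b and 0.30 for Ezh1. With both 24 h samples of replicate 2 left out, that of Ezh2 was -0.78. The comparison of Kdm6b with and without IL-4 at 24 h in WT was thus made against a control level above that of 0 h.

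**Figure D3:**
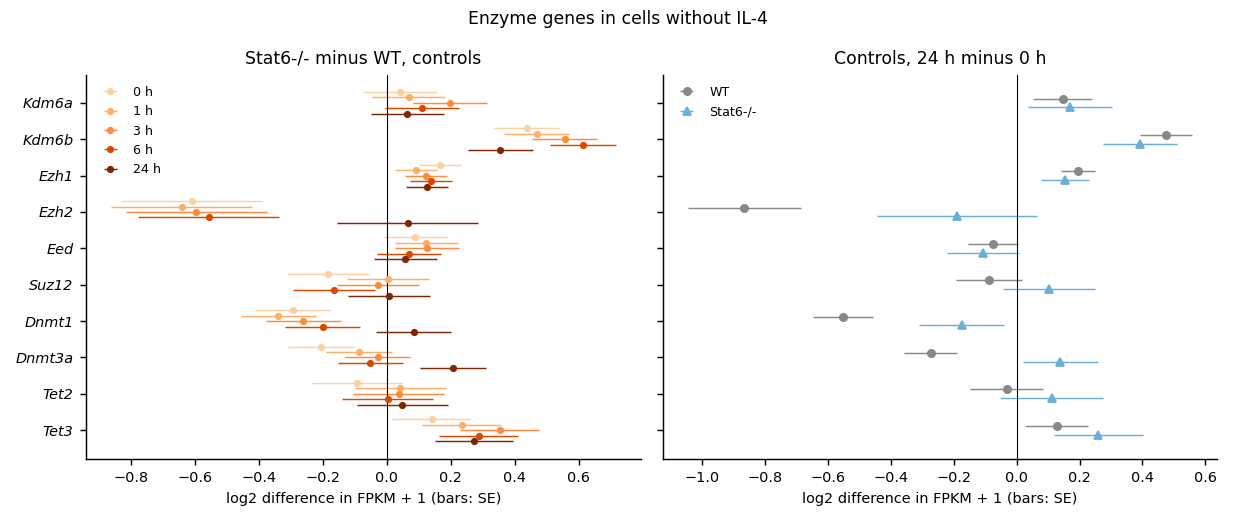
Left, log2 difference of FPKM + 1 between Stat6-/- and WT controls for each gene and control time (0, 1, 3, 6 and 24 h); right, log2 change of the controls from 0 to 24 h in each genotype; bars are SE. Kdm6b lies to the right of 0 at all 5 times (0.35 to 0.61), and Ezh2 to the left at all times up to 6 h (-0.64 to -0.56).

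The balance between related enzymes was read from the log2 ratio of their FPKM within a sample, which does not depend on how a sample was scaled. In WT, 16 comparisons (4 ratios at 4 times) were made with an exact two-sided permutation test, whose smallest possible p is 0.0286 for 4 against 4 samples and 0.0571 for 3 against 4. Several ratios reached this smallest p, which becomes 0.0508 after Benjamini-Hochberg adjustment over the 16 tests (0.0762 at 24 h), so that none passed at 0.05, and a single comparison at 24 h cannot go below 0.0571.

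Kdm6b was far below Kdm6a in the WT controls (mean log2 ratios of -2.26, -2.33 and -2.41 at 1, 3 and 6 h). With IL-4 this ratio was higher by 0.92 at 1 h, 1.42 at 3 h and 1.74 at 6 h (exact permutation p = 0.0286 at each), and in linear terms Kdm6b went from 0.188 to 0.629 of the level of Kdm6a at 6 h. At 24 h the ratio was still higher by 0.59, the smallest possible p of 0.0571 in the exact test, and here it was Kdm6a that had fallen. In Stat6-/- the difference ran from 0.28 at 1 h to -0.10 at 6 h and was -0.03 at 24 h.

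Dnmt3a passed Dnmt1 in level at 24 h of IL-4 and at no other time in WT. The ratio was 0.570 in the 24 h controls and 1.89 with IL-4, with log2 ratios of -0.93, -0.86, -0.87 and -0.59 in controls against 0.73, 0.98 and 1.06 (difference 1.73, exact permutation p = 0.0571). At 6 h the ratio had already moved by 0.84 (exact permutation p = 0.0286), as Dnmt1 fell. The Stat6-/- differences in this ratio lay between -0.15 and -0.02.

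Tet3 was more abundant than Tet2 in all WT controls, at 1.49 times its level at 1 h and 1.97 times at 24 h. With 1 h of IL-4 this order was turned in each of the 4 samples (log2 ratios -0.17, -0.28, -0.08 and -0.18). The ratio was lower by 0.76 at 1 h, 0.68 at 3 h and 0.65 at 6 h (exact permutation p = 0.0286 at each), and higher by 0.46 at 24 h (exact permutation p = 0.0571). The ratio of Ezh2 to Ezh1 was higher with IL-4 at 3 h (0.52, exact permutation p = 0.0286) and its differences at 1 h (0.29, exact permutation p = 0.0857), 6 h (-0.23, exact permutation p = 0.171) and 24 h (0.17, exact permutation p = 0.571) were between groups that overlapped. The last of these changed sign when single samples were left out (-0.09 to 0.33).

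**Figure D4:**
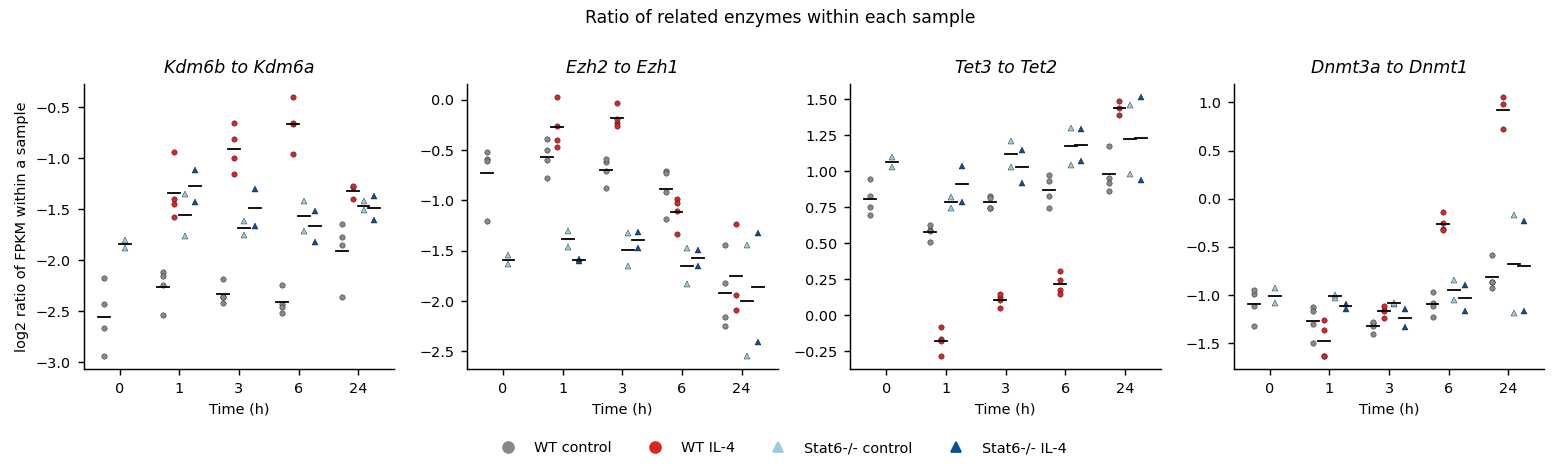
log2 ratio of FPKM within each sample for Kdm6b to Kdm6a, Ezh2 to Ezh1, Tet3 to Tet2 and Dnmt3a to Dnmt1 against time in hours, 1 point per sample by genotype and treatment. With IL-4 in WT, Kdm6b to Kdm6a stands highest at 6 h (mean -0.67), Tet3 to Tet2 dips below 0 at 1 h, and Dnmt3a to Dnmt1 rises above 0 at 24 h.

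The other genes of these pathways moved in both directions, and their counts are to be read against the 9.39%, 28.9%, 41.2% and 55% of all loci that passed at 1, 3, 6 and 24 h. Of 8 further PRC2 partners, 1 rose at 1 h, 2 at 3 h, 3 rose and 2 fell at 6 h, and 2 rose and 3 fell at 24 h, when the median log2 change was -0.24 against -0.07 over all loci. The 5 of 8 that passed at 24 h are near the share of all loci. Phf1, a Polycomb-like accessory subunit of PRC2, fell at 24 h from 12.7 ± 1.015 (SD, n = 4) to 5.03 ± 0.865 FPKM (n = 3, log2 change -1.19, adjusted p = 3.54e-06). The related Phf19 also fell (log2 change -0.57, adjusted p = 0.00331), and Jarid2, which helps recruit PRC2, was higher at 3 h (10.5 ± 0.442 to 15.96 ± 0.876 FPKM, n = 4 each, log2 change 0.56, adjusted p = 0.0226).

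Polycomb repressive complex 1 (PRC1) reads the H3K27 mark through its CBX subunits. Of its 20 subunits 1 rose and 2 fell at 1 h, 2 rose and 2 fell at 3 h, 1 rose and 6 fell at 6 h, and 2 rose and 10 fell at 24 h (median log2 change -0.29). The 7 of 20 at 6 h and the 12 of 20 at 24 h are near the 41.2% and 55% of all loci that passed. The CBX genes Cbx7 (5.62 ± 0.188 to 1.28 ± 0.257 FPKM, log2 change -1.55, adjusted p = 5.11e-06) and Cbx6 (3.49 ± 0.480 to 0.813 ± 0.150 FPKM, log2 change -1.30, adjusted p = 1.18e-06) and the ring-finger subunit Pcgf2 (log2 change -0.94, adjusted p = 9.26e-05) fell most at 24 h, among 4 control and 3 IL-4 samples.

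Acetylation competes with methylation for the same lysine. Of 10 genes for the KMT2C/D complex, which KDM6A belongs to, and the H3K27 acetyltransferases, 1 rose at 1 h, 0 moved at 3 h, 1 fell at 6 h and 3 fell at 24 h, below the share of all loci at 3, 6 and 24 h. The 3 were the acetyltransferase Ep300 (19.4 ± 1.16 to 13.996 ± 0.777 FPKM, log2 change -0.44, adjusted p = 0.00467) and the methyltransferases Kmt2d (listed as Mll2, -0.36, adjusted p = 0.00317) and Kmt2c (listed as Mll3, -0.31, adjusted p = 0.00814).

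Of 16 further genes of DNA methylation and its removal, 11 could be tested. At 1 h 1 rose and 1 fell, at 3 h 2 rose and 1 fell, at 6 h 4 rose and 2 fell, and at 24 h 3 rose and 5 fell. The 3 of 11 at 3 h are near the 28.9% of all loci, and the 6 and 8 of 11 at 6 and 24 h are above the share of all loci. The base-excision repair endonuclease gene Apex1 rose at 24 h from 11.5 ± 1.24 to 39.6 ± 4.11 FPKM (log2 change 1.701, adjusted p = 2.12e-12), and the stress gene Gadd45b from 15.5 ± 2.22 to 40.8 ± 8.58 FPKM (log2 change 1.33, adjusted p = 8.17e-09). Uhrf1, which guides DNMT1 to newly replicated DNA, fell at 6 h, when Dnmt1 did, from 10.03 ± 1.90 to 5.88 ± 0.917 FPKM (n = 4 each, log2 change -0.68, adjusted p = 0.0154).

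Of 19 other demethylase genes of the JmjC and LSD families, 3 rose at 1 h, 8 rose and 1 fell at 3 h, 7 rose and 4 fell at 6 h, and 3 rose and 7 fell at 24 h, where 10 of 19 is near the 55% of all loci, while 9 of 19 at 3 h and 11 of 19 at 6 h are above the shares at those times. The median log2 change was 0.14 at 3 and 6 h, against 0.01 and 0.00 over all loci. Kdm7a (listed as Jhdm1d) rose at 1 h from 5.53 ± 1.44 to 13.5 ± 1.73 FPKM (n = 4 each, log2 change 1.17, adjusted p = 3.10e-09), and Jmjd1c rose from 14.7 ± 3.75 to 28.5 ± 3.02 FPKM (0.94, adjusted p = 2.96e-05). Riox2 (listed as Mina) was higher at 24 h (0.83, adjusted p = 7.83e-06). In Stat6-/- cells, 0 genes of these 5 lists passed in the mean over the 4 times. As only 0.00897% of all loci passed there, this count says little. In limma's test of WT minus Stat6-/- response at the time named, Phf1, Cbx7, Cbx6, Pcgf2, Apex1, Gadd45b, Kdm7a, Jmjd1c and Riox2 passed. Phf19 (adjusted p = 0.110), Jarid2 (0.441), Ep300 (0.115), Kmt2d (0.179), Kmt2c (0.261) and Uhrf1 (0.223) did not.

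Of the 20 proliferation genes 0 passed at 1 and 3 h, 6 fell at 6 h, and 10 fell and 1 (Pcna) rose at 24 h with IL-4, with median log2 changes of -0.36 at 6 h and -0.60 at 24 h. The 6 of 20 at 6 h are below the 41.2% of all loci, and the 11 of 20 at 24 h are at the share of all loci. Ccnb2 (15.2 ± 3.83 to 4.01 ± 0.727 FPKM), Birc5 (21.6 ± 6.70 to 6.85 ± 1.82 FPKM) and Cdc20 (7.26 ± 1.64 to 2.44 ± 0.540 FPKM), genes of mitosis, fell most at 24 h. The summed level of the 20 genes at 3 h was 391, 482, 517 and 509 FPKM with IL-4 and 440.2, 514, 552 and 574 FPKM in controls, lower with IL-4 in each of the 4 replicate numbers. The sum at 24 h was higher with IL-4 in the mean, with overlapping groups (379.9 ± 45.6 against 308 ± 63.3 FPKM, SD), in the other direction from the count of genes. Whether proliferation has a part in the change of Dnmt1 was not tested. At 24 h, 5 of 10 macrophage markers (0 rose), led by Fcgr1 and Mertk, and 3 of the 5 neutrophil and progenitor markers (Camp, Ltf and Prtn3, 0 rose) also fell with IL-4, as did Cd4. These counts are near the 55% of all loci that passed, and their part in the 24 h changes was not tested either.

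Likeness in course was measured as Pearson's r over the 18 group means of log2(FPKM + 1), for the 3 genes whose group means spanned at least 1, and is given as a description since the groups share libraries, depth and genotype. Loci most like Kdm6b (span 1.26) were Trub1 (r = 0.880), Rab44 (0.864) and Clec10a (0.863). For Ezh2 (span 1.72) they were Tube1 (0.960), Cenph (0.959) and Rad51ap1 (0.958), and for Dnmt3a (span 1.57) Aco1 (0.967), Malt1 (0.963) and Ercc6 (0.961). Among the 10 genes themselves, Kdm6b was closest to Tet2 (r = 0.600) and most opposed to Dnmt1 (-0.616), Ezh2 was closest to Suz12 (0.790) and most opposed to Tet3 (-0.763), and Dnmt3a was closest to Tet3 (0.457).

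The positions of the genes on mm10 limit what a gene-level FPKM can separate. Kdm6b (chr11:69398518-69413675, minus strand) shares 4.11% of its exon bases with the antisense transcript Kdm6bos, Eed (chr7:89954654-89980976, minus strand) 6.82% with E230029C05Rik, Suz12 (chr11:79993106-80034123, plus strand) 3.6% with Gm26563, and Ezh2 (chr6:47530274-47595030, minus strand) 2.61% with Gm26625. As the library kit does not mark strand, reads from these shared bases cannot be assigned. For Dnmt3a (chr12:3806980-3914443, plus strand) and Tet2 (chr3:133463677-133544390, minus strand) the share was 0.799% and 0.255%, with Dnmt3aos and Gm42567. Dnmt1 (chr9:20907206-20959888, minus strand) and Dnmt3a each list 3 start sites summed into a single FPKM, so that their isoforms cannot be told apart. No run of 50 bases is shared between any of the 10 genes, so the paralog pairs do not exchange reads of that length, and Kdm6a (chrX:18162667-18279358, plus strand) shares 0.140% of such runs with its Y-linked relative Uty.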

How the data were processed

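Polyadenylated RNA of 53 BMDM samples was sequenced. Per the submitters' processing notes, the authors used TopHat2 2.0.7 and Cufflinks 2.0.2 with the build mm10, and they deposited FPKM values per locus and sample. The gene annotation is not given in the sources used here. Since FPKM is a share of the sample, a large change in abundant genes moves the values of the rest.

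The tables were joined on locus and symbol (23847 loci, 740 sharing a symbol). Values under 1e-06 were set to 0. Relative depth, recovered from 7647 low loci, ranged from 0.707 to 1.55 of the median sample, with medians of 1.00 in WT and 1.01 in Stat6-/-. Depth in reads is not known, and no interval for counting error is given. FPKM sums ranged from 385889 to 464915, and no pair of samples was identical.

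The 11146 loci that reached 1 FPKM in any sample entered a single model of 18 group means on log2(FPKM + 1), a scale that understates changes of low genes, in limma 3.58.1 (R 4.3.3, eBayes with trend, 35 residual degrees of freedom), with two-sided tests and Benjamini-Hochberg adjustment within each contrast. Ratios were tested with exact permutation tests (scipy 1.17.1). The fit was tested on simulated data. Alternatives were a pseudocount of 0.1, no filter, median-ratio scaling, quantile normalization, a replicate block and only the samples compared. Others were an analysis of variance with Tukey's adjustment, a log2 change of FPKM + 1 of at least 1, and leaving out each sample. Chosen after seeing the data were leaving out the 24 h controls from the comparison of genotypes or both 24 h Stat6-/- samples of a replicate number.

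Groups came from the sample labels. The 10 genes and the lists (PRC2 partners, PRC1 subunits, KMT2C/D complex and H3K27 acetyltransferases, other DNA methylation genes, other demethylases, proliferation, macrophage, T and B cell, neutrophil and progenitor, fibroblast and sex-linked markers) were chosen with earlier results of these data known. Riox1 and Ly6g had no row under these symbols. From each list, at most the 3 genes with the largest absolute log2 change among those that passed in WT with IL-4 are named with values, and, for genes whose group means span at least 1, the 3 loci with the highest Pearson r. Promoter windows are from RefSeq (GRCm38.p6), and exon overlaps are from the GENCODE annotation of that build.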

Additional observations from a re-analysis of the deposited data

Results flagged for a closer look

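Among 80 sets of 4 samples (a gene in a WT group), 2 had a sample far from the other 3 by Dixon's criterion, which chance alone flags in about 1 of 20 sets, or 4 here. Ezh2 was at 10.06 FPKM in replicate 1 of the WT 3 h controls, while the other 3 were at 11.47 to 11.64 FPKM. Suz12 was at 16.14 FPKM in replicate 2 of the WT 24 h controls, with the others at 12.88 to 13.28 FPKM.

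For 8 combinations of gene and time the response to IL-4 differed between WT and Stat6-/- in limma's test of the difference itself (adjusted p under 0.05). On the log2 scale, WT minus Stat6-/-, the difference was 0.4952 at 1 h, 0.9234 at 3 h and 1.202 at 6 h for Kdm6b, and 0.6656 at 3 h and 0.6746 at 6 h for Tet2. It was -0.7474 for Dnmt1 at 6 h, -0.5801 for Ezh1 at 24 h and 1.426 for Dnmt3a at 24 h. The controls of Kdm6b, Dnmt1 and Ezh1 also differed between the genotypes, and the part of that difference in the responses was not tested.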

How the results depend on the processing

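No gene that passed changed direction under the alternatives run. With a log2 change of FPKM + 1 of at least 1 required, 0, 0, 1 and 1 genes passed at 1, 3, 6 and 24 h in WT. On this scale Kdm6b fell short at 1 and 3 h, although its mean FPKM rose more than 2-fold. The numbers were 0, 0, 1 and 1 for the difference between genotypes in response, and 0 for the genotypes without IL-4 and for 24 against 0 h in WT. With the analysis of variance, 1 of 10 genes passed in WT at 1 h (3 in the reported fit), since Eed and Tet2 were lost, as were Dnmt3a at 3 h, Ezh1 at 6 h and Tet3 at 24 h. For the difference in response, 0 genes passed at 1 h without the filter, with quantile normalization or with only the samples compared (1 in the reported fit), and 4 at 3 h with only the samples compared (2 in the reported fit). Leaving out single samples (where 1 Stat6-/- sample was left, it was assumed to vary like the other groups) gave 0 to 1 genes for this difference at 1 h, 1 to 2 at 3 h and 2 to 5 at 24 h, and 0 to 2 for 24 against 0 h in Stat6-/-. With a pseudocount of 1 the difference in the ratio of Kdm6b to Kdm6a was 0.5249, 0.9785 and 1.21 at 1, 3 and 6 h, and that of Tet3 to Tet2 was -0.6773 and -0.6048 at 1 and 3 h, since a pseudocount pulls the lower gene toward the other. Without the 24 h controls, 5 of 10 genes passed between the genotypes. Leaving out both 24 h Stat6-/- samples of a replicate number leaves 1 sample in each of these groups, so no count of genes is given for it. The count for IL-4 in Stat6-/- stayed at 0 of 10 in each alternative, while the number of all loci that passed reached 11 without the filter (24 h) and 46 with the replicate block (mean of 4 times).

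Groups share replicate numbers, and the labels do not say what a number stands for. Deviations of same-numbered WT samples correlated above 0.1 in 13 of 15 pairs (0.027 to 0.561), and 12 of 15 IL-4 samples correlated best with their own number. In Stat6-/- the correlations were 0.791 to 0.9. With the replicate number as a block, 2 genes passed for the difference in response at 1 h (Kdm6b and Eed), 4 at 3 h (with Dnmt1 and Eed added) and 3 at 24 h (with Kdm6a added), 6 in WT at 3 h (with Ezh2) and 6 at 24 h (with Dnmt1 and Ezh2), and 1 for 24 against 0 h in Stat6-/- (Kdm6b), and no call was lost. Depth in counts is unknown, and n = 2 limits every Stat6-/- value.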
